A study of Schizosaccharomyces pombe with 6 samples.

Results

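The M-factor genes are the machinery with which h- (M) cells of the fission yeast Schizosaccharomyces pombe make and export their mating pheromone, sense the pheromone of the partner and break it down. They were taken as every probe set annotated to mfm1, mfm2, mfm3, mam1, mam2, mam4 or sxa2, genes of h- cells other than the adhesin gene mam3. The rule found 9 probe sets for these 7 genes, out of 2934 probe sets annotated to S. pombe genes, which give 2896 genes a probe set of their own. mfm1 and mfm3 had 2 probe sets each, and the other 5 genes had 1.

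Expression was measured on 6 Affymetrix arrays. Separate YEPD cultures of strains YHL6381 (h+) and SPQ-01 (h-), raised at 30 °C to OD600 5.0, were mixed in equal amounts and then held in new YEPD or in YEPME for 90 min, and 3 arrays per medium are labelled biological replicates 1 to 3. Every array therefore holds RNA of both mating types and of the same strains, whose further genotype is not given in the sources used here. In the design text flocculation is the state of the YEPME mixtures. That text pairs the codes YSD and YSM with media in the reverse of the sample labels; the grouping used is the medium in a sample's own labels, and under the other reading all signs of the medium differences would be reversed. For YEPME, the strain field says diploid although the remaining labels describe a mixture. In such a mixture, fewer cells of a type and less RNA per cell cannot be told apart.

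M-factor is a short peptide whose C-terminal cysteine carries a farnesyl group, and the genes mfm1, mfm2 and mfm3 encode precursors of the same peptide. After prenylation the cysteine is methylated by Mam4, and the ABC transporter Mam1 carries the pheromone out of the cell. M cells in turn sense the P-factor of h+ cells with the receptor Mam2 and secrete the carboxypeptidase Sxa2, which inactivates P-factor. Apart from mam4, transcription of these genes is low in growing cells and rises when nutrients run short and pheromone from the partner arrives.

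Replicate 1 of both media stood apart from replicates 2 and 3 across the whole array. Over the S. pombe probe sets the 2 replicate 1 arrays correlated at 0.975, the other 4 at 0.994 to 0.999, and pairs across this divide at 0.889 to 0.923. The background limit, set at the 95th percentile of the S. cerevisiae probe sets of each array, was 5.60 and 5.59 (log2) in replicate 1, compared with 4.78 to 4.81 elsewhere. Dim probe sets are thus read on another floor in replicate 1. The medium differences below are given with and without replicate 1.

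The level was highest on the YEPD replicate 1 array for 9 of 9 probe sets, against 28.4% of all S. pombe probe sets with their highest value there. The size ranged from mfm2, which lay 2.41 above its next highest array on the log2 scale, to mam4 and sxa2, which lay 0.16 and 0.21 above and whose other 5 arrays spread more widely than that. The plot of levels by array shows the same array on top in every panel.

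**Figure D1:**
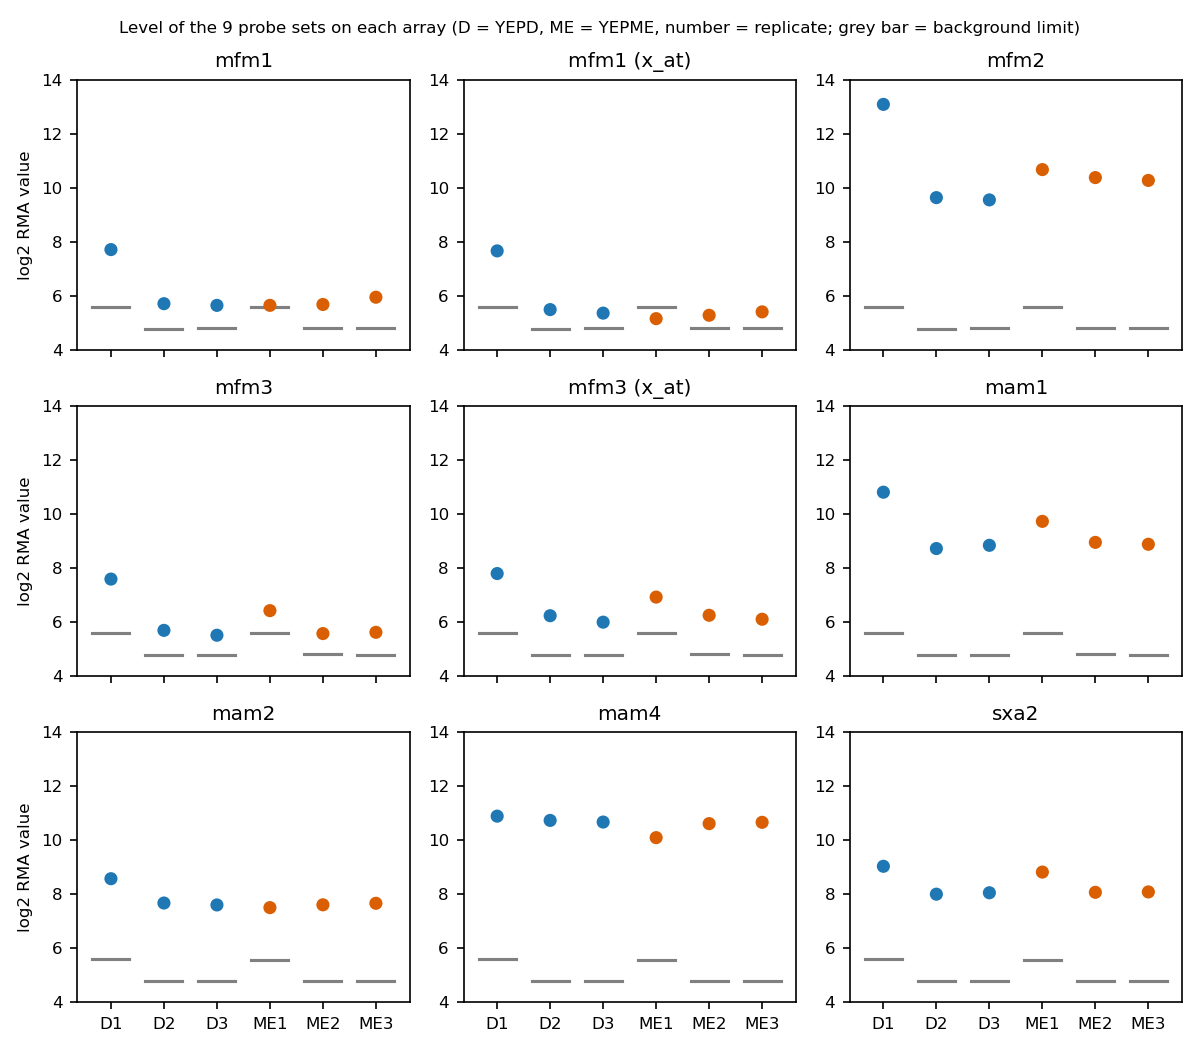
Log2 RMA value (vertical axis) of each of the 9 probe sets on each array (horizontal axis, D for YEPD and ME for YEPME with the replicate number), 1 point per array, with a grey bar at the background limit of that array. The YEPD replicate 1 point is the highest in each of the 9 panels, and the 2 mfm1 probe sets lie near the limit on the other arrays.

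Among the precursor genes, mfm2 (SPAC513.03) had log2 levels of 13.10, 9.65 and 9.56 in YEPD and 10.68, 10.39 and 10.28 in YEPME, in replicates 1, 2 and 3. The 3 YEPME arrays lay above YEPD replicates 2 and 3 and below YEPD replicate 1, so the media overlapped. Its group means were 10.77 ± 2.02 (SD, n = 3) in YEPD and 10.45 ± 0.21 in YEPME, and nearly all of the YEPD spread came from replicate 1. mfm2 lay far above the background limit on all 6 arrays, by 4.76 to 7.50.

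mfm1 (SPAPB8E5.05), on its plain probe set, read 7.72, 5.72 and 5.66 in YEPD and 5.66, 5.69 and 5.96 in YEPME. Its x_at probe set, a type whose probes can bind related transcripts, read 7.67, 5.50 and 5.37 and then 5.17, 5.29 and 5.42. On both, YEPD replicate 1 was the high array and the other 5 were alike. On the YEPME replicate 1 array the first lay 0.07 above the background limit and the second 0.42 below it, so the x_at level there is only a bound; on the other 5 arrays it was measured.

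mfm3 (SPBPJ4664.03) read 7.60, 5.70 and 5.52 in YEPD and 6.43, 5.58 and 5.63 in YEPME on its plain probe set. On its x_at probe set it read 7.80, 6.24 and 6.003 and then 6.93, 6.26 and 6.11. Here both replicate 1 arrays were above the other 4, the YEPD array more so. Measured from each array's own background limit, however, the YEPME replicate 1 value of the plain probe set lay 0.84 above it and those of YEPME replicates 2 and 3 lay 0.77 and 0.82 above.

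The 2 probe sets of a gene gave like profiles, with Pearson correlations over the 6 arrays of 0.990 for mfm1 and 0.993 for mfm3. After each probe set was set against its own mean, they differed by at most 0.28 on any array. Probe sets of different mfm genes correlated at 0.834 to 0.948 and differed by up to 1.24. These correlations describe 6 arrays that share the offset of replicate 1. The mfm genes hold nearly the same coding sequence for the peptide, so the share of signal from a copy is uncertain.

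For export, mam1 (SPBC25B2.02C) read 10.81, 8.73 and 8.85 in YEPD and 9.73, 8.96 and 8.89 in YEPME. Both replicate 1 arrays were high, in YEPD by more. The methyltransferase gene mam4 (SPAC10F6.12C) varied least among the members in YEPD, at 10.90, 10.74 and 10.68, and read 10.10, 10.62 and 10.67 in YEPME. Its low array was YEPME replicate 1.

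On the receiving side, the P-factor receptor gene mam2 (SPAC11H11.04) read 8.58, 7.68 and 7.61 in YEPD and 7.51, 7.61 and 7.67 in YEPME, again with YEPD replicate 1 as the single high array. sxa2 (SPAC1296.03C) read 9.04, 8.01 and 8.06 in YEPD and 8.83, 8.08 and 8.09 in YEPME. The high arrays were replicate 1 of both media.

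The comparison of media asked whether these transcripts differed between flocculating and non-flocculating mixtures. Over all 6 arrays the 9 log2 differences, YEPME minus YEPD, ran from -0.89 (mfm1, x_at) to -0.04 (sxa2), and 0 of 9 passed limma with no block, at an adjusted or an unadjusted p under 0.05. That fit called 0 of the 2934 probe sets, with 34 (1.16%) at an unadjusted p under 0.05, and all 9 members had an adjusted p of 0.999. With replicate 1 against replicates 2 and 3 as a block, limma called 58 probe sets (1.98%) and again 0 of the 9. The 95% interval of mfm2 in the fit without a block, -2.77 to 2.14, allows a large difference in either direction. Without the YEPD replicate 1 array, 6 of the 9 differences changed sign (mfm2 to 0.85, mam1 to 0.40), and the limma adjusted p of those 6 lay between 0.733 and 0.762.

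The 3 replicate pairs gave different answers. In replicate 1 all 9 probe sets were lower in YEPME, against 55.4% of all S. pombe probe sets, with a median of -1.08 against -0.04 over all. mfm1 differed by -2.06 on its plain probe set and mfm2 by -2.41, the 7th and 4th lowest of the 2934 differences in that pair. The x_at probe set of mfm1 had a difference of -2.51 as deposited, but its YEPME value lay below the background limit. Set at that limit the difference is -2.09, so the signal of this probe set was at least 4.25-fold lower in YEPME there. On its plain probe set mfm1 was 4.18-fold lower, with a YEPME value only 0.07 above the limit. The other members differed by -1.17 and -0.87 (mfm3), -1.08 (mam1), -1.07 (mam2), -0.80 (mam4) and -0.21 (sxa2). In replicate 2, 5 of 9 were lower in YEPME against 48.5% of all probe sets, and in replicate 3, 1 of 9 against 49.7%. The member medians were -0.03 and 0.06 in those pairs.

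**Figure D2:**
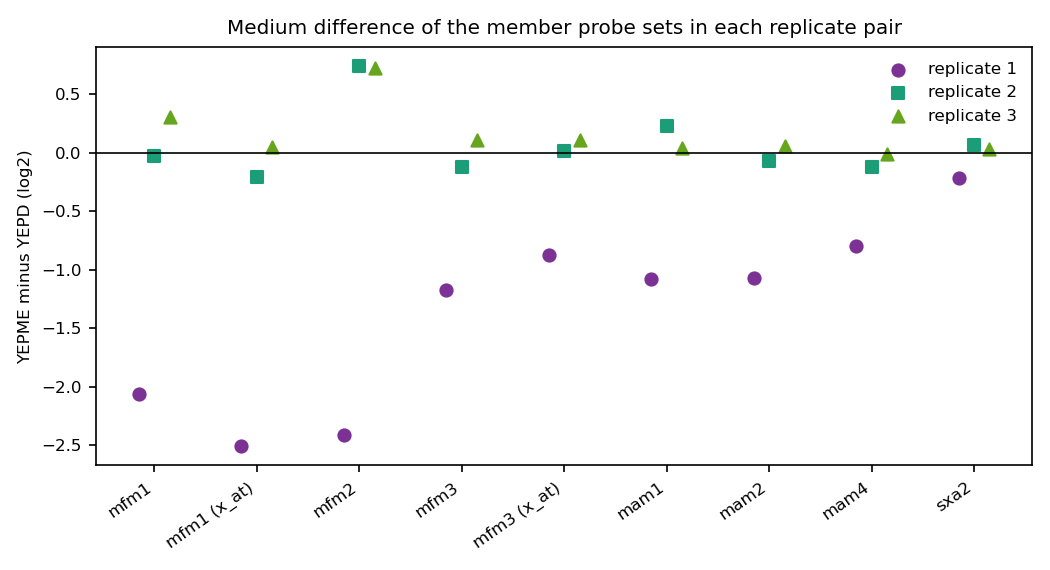
YEPME minus YEPD difference on the log2 scale (vertical axis) for each of the 9 probe sets (horizontal axis), with 1 marker per replicate pair. All 9 replicate 1 circles lie below 0, from -2.51 to -0.21, while the replicate 2 and 3 markers lie near 0 except for mfm2 at 0.74 and 0.72.

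Within replicates 2 and 3, the one member that rose was mfm2, by 0.73 ± 0.05 (SE), which is 1.66-fold in YEPME (limma on 2 arrays per medium, adjusted p = 0.00425). It was higher in YEPME in both pairs, by 0.74 and 0.72, and its 2 media did not overlap. Its rise was the 18th largest of the 2934 probe sets. The fit called 15.2% of all probe sets, 6.68% higher and 8.52% lower, beside 1 of 9 members. Without YEPD replicate 2 or 3 the difference of mfm2 was 0.77 and 0.69 and no longer passed (limma adjusted p = 0.0641 and 0.0737). Those fits hold 1 YEPD array, assumed to vary like the YEPME arrays, and called 19 and 17 probe sets in place of 446.

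The other 8 probe sets did not pass within replicates 2 and 3, and their intervals were narrow. For mam2 the difference was -0.0027 with a 95% interval of -0.11 to 0.11, for mam4 -0.06 with -0.17 to 0.04, and for sxa2 0.05 with -0.04 to 0.14. mam1 differed by 0.13 with an interval of -0.0070 to 0.27 (limma adjusted p = 0.162). A 2-fold change of these 4 genes, a log2 difference of 1, lies outside those intervals. They rest on 2 arrays per medium and do not cover replicate 1, where mam1 and mam2 differed by -1.08 and -1.07. For mfm1 the 2 probe sets gave 0.14 (-0.11 to 0.38) and -0.08 (-0.25 to 0.09), and for mfm3 -0.0054 (-0.18 to 0.17) and 0.06 (-0.19 to 0.31), at levels 0.48 to 1.46 above the background limit. The direction was not the same for both probe sets of either gene. Without YEPME replicate 2 the plain mfm1 probe set was higher by 0.27 and passed (limma adjusted p = 0.0366).

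Whether the medium difference of replicate 1 departed from that of replicates 2 and 3 was tested with limma on 4 cells, medium by replicate 1 or not. All 9 probe sets departed downward, while of all S. pombe probe sets 45.6% were called, 26.9% downward and 18.7% upward. mfm2 departed by -3.15 ± 0.09 (SE; adjusted p = 3.12e-04), the 3rd lowest of all, and the plain mfm1 probe set by -2.20 ± 0.16 (adjusted p = 0.00169). On YEPME replicate 1 that plain probe set lay only 0.07 above the background limit. The x_at probe set of mfm1 departed by -2.43 as deposited (limma adjusted p = 9.66e-04), or by -2.01 with its YEPME replicate 1 value set at the background limit, which is the bound on its size. The mfm3 probe sets departed by -1.16 and -0.93, mam1 by -1.21, mam2 by -1.07, mam4 by -0.73 and sxa2 by -0.26 ± 0.06 (adjusted p = 0.0242). The sxa2 call was lost under quantile normalization of S. pombe signals (-0.14, limma adjusted p = 0.126), with trend and robust eBayes (adjusted p = 0.0582) and without YEPD replicate 2 (0.0969) or 3 (0.0695). Replicate 1 has 1 array per medium, so these p-values assume that its arrays vary like the others.

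Replicate 1 stood further off in YEPD than in YEPME for every member except mam4. Set against the mean of YEPD replicates 2 and 3, the YEPD replicate 1 array was higher for 9 of 9 probe sets, while limma called 81.4% of all probe sets in that contrast, 41.1% higher and 40.3% lower. mfm2 was higher by 3.49 ± 0.06 (SE), or 11.3-fold (limma adjusted p = 9.76e-06), the 9th largest of the 2934. The mfm1 probe sets were higher by 2.03 and 2.24, mam1 by 2.03, the mfm3 probe sets by 1.99 and 1.68, sxa2 by 1.01 and mam2 by 0.94. The background limit was also higher on YEPD replicate 1 than on YEPD replicates 2 and 3. Measured from each array's own limit, the plain mfm1 probe set lay 2.13, 0.94 and 0.85 above it in YEPD replicates 1, 2 and 3. The x_at probe set of mfm1 lay 2.08, 0.72 and 0.57 above. The mfm1 and mfm3 offsets were thus smaller on this scale, and the part of the limit in them was not tested. mam4 was higher by 0.19 ± 0.05, 1.14-fold, and lost its call without YEPD replicate 3 (limma adjusted p = 0.0838).

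In YEPME the same contrast was smaller or turned. There the replicate 1 array was higher for 5 of 9 probe sets and lower for 1, while of all probe sets 80.1% were called, 39% higher and 41.1% lower. mfm2 was higher by 0.35 ± 0.06, the mfm3 probe sets by 0.83 and 0.75, mam1 by 0.81 and sxa2 by 0.74, while mam4 was lower, at -0.54 ± 0.05 (limma adjusted p = 3.42e-04). The mfm1 probe sets (-0.17 and, on x_at and from a value below the limit, -0.19) and mam2 (-0.13, interval -0.27 to 0.0018) did not pass. Without YEPME replicate 2 both mfm1 probe sets passed as lower, at -0.30 (limma adjusted p = 0.00730) and -0.25 (0.0432), and under quantile normalization the x_at probe set did, at -0.34 (0.0408). With its replicate 1 value set at the background limit the x_at difference could be as high as 0.23, so its direction is not settled. The background limit moved the same way, at 5.59 on YEPME replicate 1 against 4.81 and 4.80 on YEPME replicates 2 and 3; its part in the mfm3 values was not tested.

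**Figure D3:**
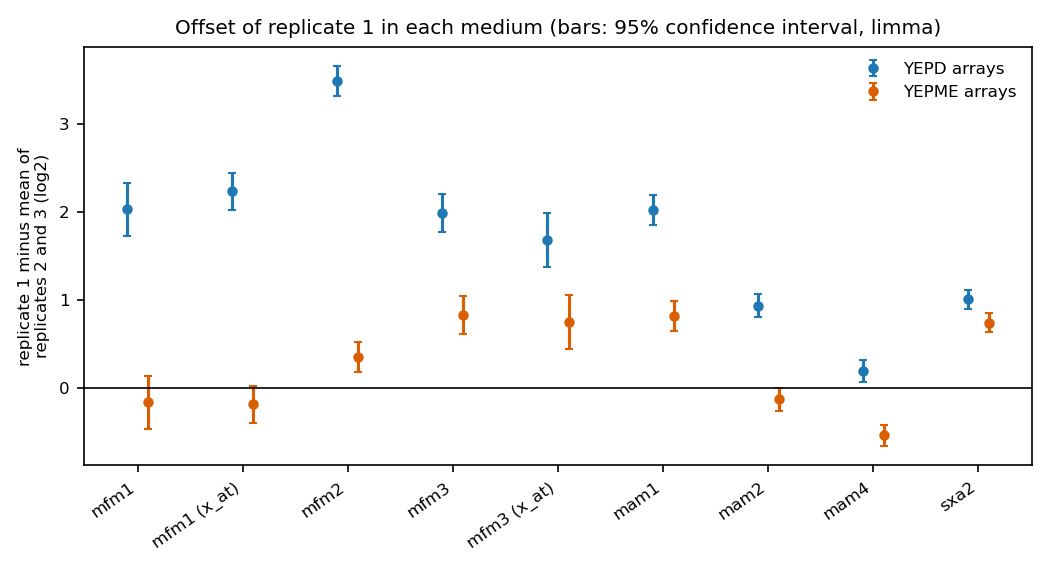
Replicate 1 minus the mean of replicates 2 and 3 on the log2 scale (vertical axis) for each probe set (horizontal axis), in YEPD and in YEPME, with 95% confidence intervals from limma as bars. As signed values, the YEPD offset exceeds the YEPME offset for every probe set, by the widest margin for mfm2 (3.49 against 0.35). In size, the mam4 offset is larger in YEPME (-0.54 against 0.19 in YEPD).

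Markers of the 2 mating types were read on the same arrays. Summed on the linear scale, the 9 member probe sets came to 14214 on YEPD replicate 1, to 3620 and 3517 on YEPD replicates 2 and 3, and to 4044 to 4524 in YEPME. The 5 measured P cell genes summed to 6318 on YEPD replicate 1, to 5707 and 5421 on the other YEPD arrays, and to 6168 to 6557 in YEPME. All 5 were above the background limit on all 6 arrays, though map2 by only 0.33 and 0.58 on replicate 1 of YEPD and of YEPME. Single genes weighed heavily in these sums. mfm2 made up 61.7% of the member sum on YEPD replicate 1 and 21.5% to 36.3% on the other arrays. On replicates 2 and 3 mam4 lay above mfm2, at log2 levels of 10.74 and 10.68 in YEPD and 10.62 and 10.67 in YEPME. mfm2 read 9.65, 9.56, 10.39 and 10.28 on those arrays. mam4 was the highest of the other members on all 6 arrays, so it weighs most in the sums without mfm2. It is the exception named above to low transcription in growing cells, so the member sums do not count mating-induced genes alone. mfm1 and mfm3 enter them with 2 probe sets each. sxa1 made up 76.2% to 81.4% of the P cell sum and was nearly flat, at log2 levels of 12.09 to 12.29 over the 6 arrays. Whether its signal came from P cells alone was not tested. Without mfm2 the members summed to 5447 on YEPD replicate 1 and to 2750 to 2880 on the other 5 arrays. Without sxa1 the P cell genes summed to 1364 on YEPD replicate 1, to 1061 and 1054 on YEPD replicates 2 and 3, and to 1469 to 1546 in YEPME. The mat cassette genes of both types were looked for but had no probe set of their own in the annotation used, so they were not analysed here.

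The P cell genes did not follow one direction on YEPD replicate 1. map1, for the transcription factor of P cells, was higher there by 0.74 and map4, the P cell adhesin gene, by 0.60, whereas map2, which encodes P-factor itself as a precursor, differed by -0.74 and map3, for the M-factor receptor, by -0.42. sxa1, for an aspartic protease, differed by 0.14 (limma adjusted p = 0.0914) and did not pass. On YEPME replicate 1, against YEPME replicates 2 and 3, map2 differed by -0.80, map3 by -0.33, map1 by -0.17 and map4 by 0.41. There sxa1 differed by 0.05 and did not pass. In the test of departure 1 of these 5 genes passed, map1 with -0.91 (limma adjusted p = 0.00189). map3 passed under quantile normalization (0.37, limma adjusted p = 0.0410) and map4 without YEPME replicate 2 (-0.26, limma adjusted p = 0.0379). The remaining M cell marker, the adhesin gene mam3, departed by -0.02 (adjusted p = 0.769). Within replicates 2 and 3 mam3 rose by 0.39, map1 by 0.49, map2 by 0.30, map3 by 0.36 and map4 by 0.59 (limma adjusted p from 0.00534 to 0.0438). With 1 YEPD array, replicate 2 or 3 left out, the 5 differences ran from 0.29 (map2) to 0.61 (map4), and none passed (limma adjusted p between 0.0721 and 0.221). The call of map2 was also lost under quantile normalization (0.24, limma adjusted p = 0.0807) and with trend and robust eBayes (limma adjusted p = 0.0521). The part of the mix of mating types in the member values was not tested.

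**Figure D4:**
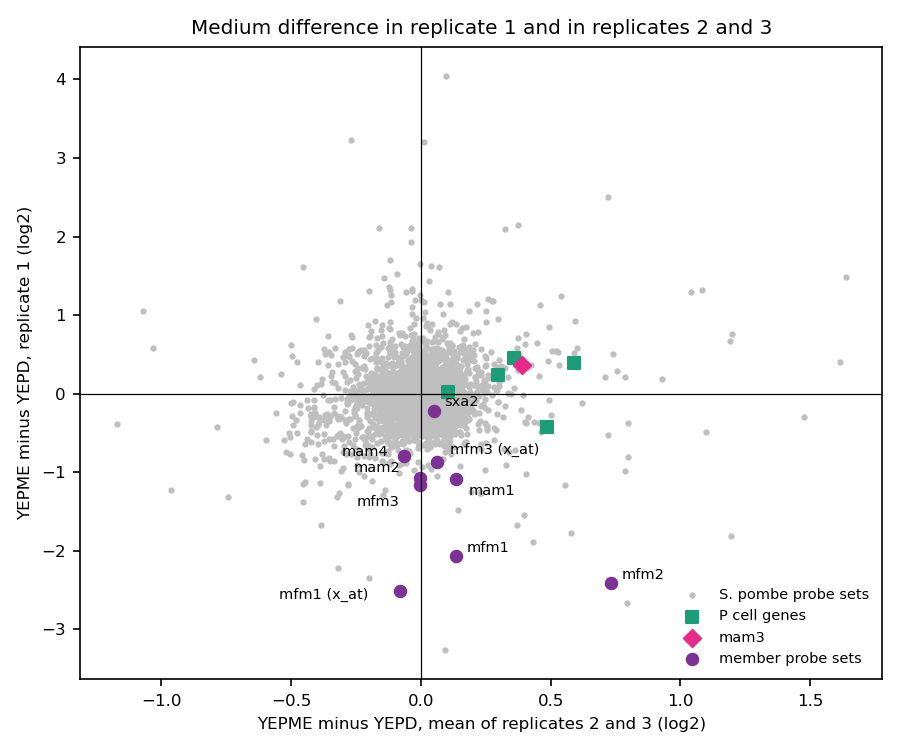
YEPME minus YEPD difference in replicate 1 (vertical axis) against the mean difference of replicates 2 and 3 (horizontal axis), both log2, with 1 point per S. pombe probe set. The 9 member probe sets lie below 0 on the vertical axis and, mfm2 at 0.73 apart, between -0.08 and 0.14 on the horizontal axis, whereas mam3 lies at 0.39 and 0.36.

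Of the genes that supply and attach the farnesyl group, none passed within replicates 2 and 3. Of 12 measured genes of isoprenoid supply and protein prenylation, 0 passed limma there and 2 (cpp1 and spo9) had an unadjusted p under 0.05, with a median of 0.03 against 0.0031 over all probe sets. In the test of departure 6 of the 12 were lower and 1, spo9, higher, beside 26.9% and 18.7% of all probe sets. cpp1, for the beta subunit of the farnesyltransferase, departed by -0.40 (limma adjusted p = 0.0335) and cwp1, for its alpha subunit, by -0.37 (adjusted p = 0.00954). erg12, for mevalonate kinase, departed by -0.42, erg10, for acetoacetyl-CoA thiolase, by -0.31 and hcs1, for HMG-CoA synthase, by -0.21 (limma adjusted p = 0.0320). The hcs1 departure did not pass under quantile normalization of S. pombe signals (-0.12, limma adjusted p = 0.126). The departures of cpp1, erg10 and hcs1 did not pass without YEPD replicate 2 (limma adjusted p from 0.0624 to 0.123), nor did these and cwp1 without YEPD replicate 3 (0.0537 to 0.121) or cpp1 without YEPME replicate 3 (0.0536). On YEPD replicate 1, cpp1 and cwp1 were higher by 0.70 and 0.79. Within replicates 2 and 3 cpp1 differed by 0.18 (limma adjusted p = 0.117) and passed once pairs were blocked (limma adjusted p = 0.0202).

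Of the 10 other ABC transporter genes, 4 departed upward (pdr1, pmd1, bfr1 and abc1) and 3 downward (abc3, hmt1 and mdl1) in replicate 1, beside 18.7% and 26.9% of all probe sets, with a median of 0.13 against -0.04 over all. pdr1 departed by 1.35, pmd1, for a leptomycin efflux pump, by 0.64, bfr1, for a brefeldin A efflux pump, by 0.61 and abc3, for a vacuolar transporter, by -0.47, where mam1 departed by -1.21. abc4 departed by 0.0077 (limma adjusted p = 0.930). Within replicates 2 and 3, pmd1 and hmt1, for a vacuolar transporter of phytochelatins, rose by 0.15 and 0.19, and abc3 differed by -0.25 (limma adjusted p = 0.0279). The calls of pmd1 and abc3 there did not hold without YEPD replicate 2 or 3, nor did the departure of abc3. The call of pmd1 was also lost without YEPME replicate 2 or 3.

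Genes of the pheromone response shared by both cell types were mixed. Of 17 measured, 7 rose and 0 fell within replicates 2 and 3, beside 6.68% and 8.52% of all probe sets. In the test of departure 7 were lower and 3 (ste11, fus1 and pat1) higher, beside 26.9% and 18.7% of all probe sets. ste4, for an adaptor of the MAP kinase kinase kinase, rose by 0.33 within replicates 2 and 3 and departed by -1.24, with YEPD replicate 1 higher by 1.54, as for the members. mei2, whose RNA-binding product is needed to begin meiosis, departed by -3.36, spk1, for the MAP kinase, by -1.94 and rgs1, for a negative regulator of the receptor's G protein, by -1.71. For spk1 and rgs1 the YEPME replicate 1 array was the low one (-1.79 and -1.23 against YEPME replicates 2 and 3). mei2 was low on that array (-1.55) and also high on YEPD replicate 1 (1.81). ste11, for the transcription factor that drives the mating genes, was lower on replicate 1 of YEPD (-0.93) and of YEPME (-0.65). It departed upward by 0.28 (limma adjusted p = 0.0276). The calls of ste4, spk1, rgs1 and ste11 within replicates 2 and 3, and the departure of ste11, did not hold without YEPD replicate 2 or 3. The call of ste11 within replicates 2 and 3 was also lost without YEPME replicate 3. scd1, for the exchange factor of Cdc42, departed by -0.12 (limma adjusted p = 0.211).

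The probe sets with profiles nearest to the mean of the mfm probe sets, by Euclidean distance over 6 arrays after each was set against its own mean, were gal1, gal10, msa1, isp3 and mag2. Their distances were 0.40, 0.43, 0.45, 0.51 and 0.72, and their Pearson correlations with the mean profile 0.985, 0.980, 0.983, 0.975 and 0.935. gal1 and gal10 encode enzymes of galactose use, msa1 an RNA-binding protein that restrains sexual differentiation, isp3 a spore surface protein and mag2 a DNA glycosylase. On YEPD replicate 1 gal10 read 11.74, against 9.20 and 9.17 in YEPD replicates 2 and 3 and 9.74 to 9.97 in YEPME, and within replicates 2 and 3 its rise was 0.58 (limma adjusted p = 0.00282). gal1 and msa1 rose there by 0.23 and 0.37, isp3 differed by 0.14 (limma adjusted p = 0.504) and mag2 by -0.28 (adjusted p = 0.0809, or 0.0108 once pairs were blocked). The calls of gal1, gal10 and msa1 there did not hold without YEPD replicate 2 or 3, nor did that of gal1 without YEPME replicate 2 or 3.

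Nearest to the mean of mam1 and mam2 were tum1, ste4, mug157, yox1 and ppr2, at distances of 0.29, 0.29, 0.31, 0.35 and 0.40 and correlations of 0.978, 0.974, 0.996, 0.996 and 0.962. Of these, ste4 belongs to the pheromone pathway, yox1 encodes a repressor of MBF-driven transcription and mug157 is a gene named for its rise in meiosis. These likenesses describe 6 arrays and rest mostly on YEPD replicate 1.

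**Figure D5:**
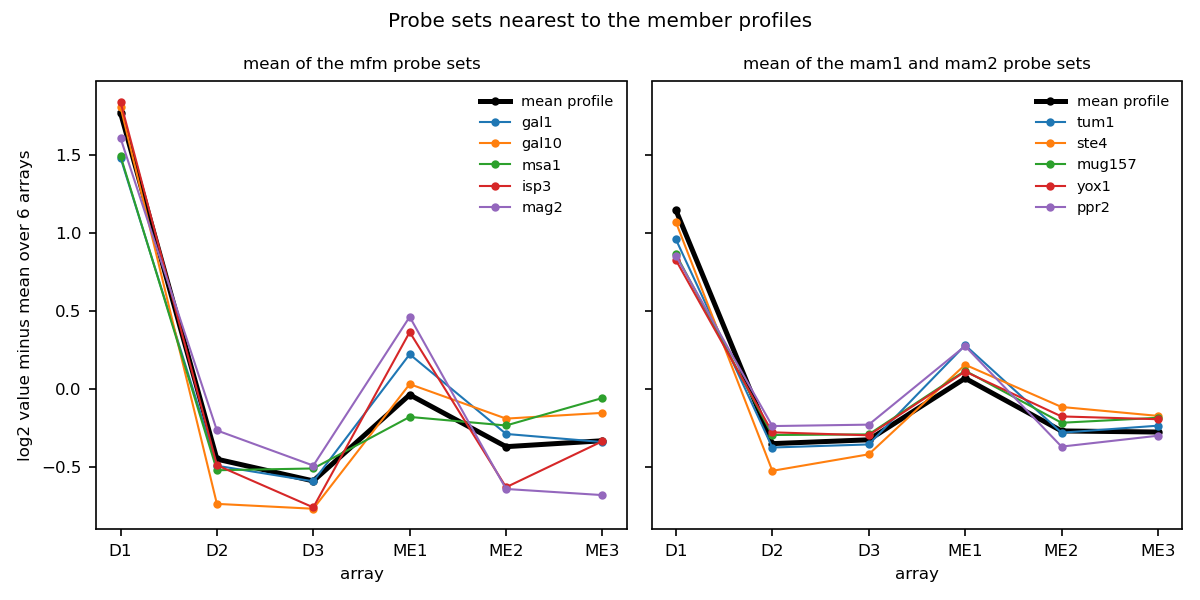
Log2 value minus the mean over 6 arrays (vertical axis) on each array (horizontal axis, D for YEPD and ME for YEPME), for the mean profile of the mfm probe sets (left) and of mam1 and mam2 (right) as a thick black line and the 5 nearest probe sets as thin lines. All lines peak on YEPD replicate 1, at 1.77 for the mfm mean and 1.14 for the mam1 and mam2 mean.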

How the data were processed

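Values are the authors' deposited log2 signals by probe set. The submitters' processing notes name RMA and Partek; no version or setting, and no statement on joint normalization of the 6 arrays, is given in the sources used here. RMA corrects background, normalizes quantiles and summarises probes, and the number of arrays limits the precision. Replicates are labelled biological, and nothing more says how far the cultures were separate.

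The table holds 10924 probe sets: 2934 annotated to S. pombe genes (2914 to 1 gene and 20 to several), 2600 to S. cerevisiae genes and 5390 without a gene here. Genes were named by gene number from the RefSeq annotation ASM294v3 for 2931 probe sets and by symbol for 3; no coordinates were taken from it. All 9 member probe sets were fitted; none was filtered.

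limma 3.58.1 (lmFit, eBayes, two-sided, Benjamini-Hochberg over the 2934 probe sets, called at an adjusted p under 0.05) was run in R 4.3.3 on all 6 arrays without a block, on the 4 arrays of replicates 2 and 3, and on 4 cells of medium by replicate 1 or not. The code was tested on simulated data. Members, lists, tests and the split of replicate 1 were chosen with earlier results of these data known. Deviations from the group means correlated between arrays that share a number (0.850, 0.834 and 0.832), and unlike numbers 2 and 3 gave 0.814 and 0.809. Each group mean holds the offset of replicate 1, so these correlations cannot show whether numbers 2 and 3 pair the arrays. The pairs used here follow the replicate numbers in the labels.

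Named genes were all member probe sets, every measured mating type marker, up to 4 genes per list with the largest departure and up to 2 with the highest level, and the 5 nearest profiles; hmt1, spo9, abc1, mdl1, fus1 and pat1 were added after their values were seen. In the prenylation list 12 of 14 genes had a probe set, and in the P cell list 5 of 9. Alternatives were median centring, quantile normalization of S. pombe probe sets, a filter for dim signals (above the limit on at least 3 arrays, or 2 of 4), 1 probe set per gene, eBayes with trend and robust settings, a replicate or batch block and leaving out each array.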

Additional observations from a re-analysis of the deposited data

Results flagged for a closer look

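For all 9 member probe sets the YEPME minus YEPD difference of replicate 1 departed from that of replicates 2 and 3 in a limma test of the difference itself. The departures were -3.15 for mfm2, -2.20 (plain probe set) and -2.43 (x_at) for mfm1, and -1.16 (plain) and -0.93 (x_at) for mfm3, all on the log2 scale. The x_at value of mfm1 on YEPME replicate 1 lay below the background limit, and with it set at that limit the departure is -2.01. The plain mfm1 value on that array lay only 0.07 above the limit. The departures were -1.21 for mam1, -1.07 for mam2, -0.73 for mam4 and -0.26 for sxa2. Of all S. pombe probe sets, 45.6% departed in one direction or the other. Replicate 1 holds 1 array per medium, and whether the departure belongs to the cultures or to the arrays was not tested.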

How the results depend on the processing

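The precision is limited by 3 arrays per medium and, for mfm1 and mfm3, by signals close to the background limit. The count of probe sets called over 6 arrays was 0 under every scaling, filter and left-out array tried (19 to 68 at an unadjusted p under 0.05) and with the replicate block (317 unadjusted), but 58 with the batch block. Within replicates 2 and 3 it was 749 with trend and robust eBayes in place of 446, 658 with the replicate block, and 17 to 462 when 1 array was left out. The departure of replicate 1 was called for 1338 probe sets, and for 546 to 1410 when 1 array was left out. The replicate block changed no call among the members and, among the other genes named by the rule, those of cpp1 and mag2. Within replicates 2 and 3 and for the departure, the alternatives were not read for hmt1, spo9, abc1, mdl1, fus1 and pat1.

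Over 6 arrays, leaving out 1 array took the difference of 6 member probe sets across 0: mfm1 (plain probe set) from -0.95 to 0.081, mfm2 from -0.92 to 0.85, mfm3 from -0.77 to 0.27 and from -0.59 to 0.31 on the plain and x_at probe sets, mam1 from -0.64 to 0.40 and sxa2 from -0.29 to 0.30. Within replicates 2 and 3 it gave -0.096 to 0.085 for mfm3 (plain), -0.057 to 0.18 for its x_at probe set, -0.038 to 0.033 for mam2, -0.11 to 0.034 for pdr1 and -0.0058 to 0.29 for isp3. Centring the arrays turned mfm3 (plain) to 0.0098 and mam2 to 0.012 there, and quantile normalization turned mfm3 (plain) to 0.019 and sxa2 to -0.018. For the departure, centring turned abc4 to -0.0060, quantile normalization turned mam3 to 0.0075 and sxa1 to 0.011, and leaving out 1 array gave -0.020 to 0.035 for abc4 and -0.14 to 0.029 for map2. None of these values passed. The cause of these changes was not tested.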
